A study of Mus musculus with 9 samples.

Results

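The genes described are 10 secreted regulators of Wnt signaling, chosen by name: the secreted Frizzled-related proteins Sfrp1, Sfrp2, Sfrp4, Sfrp5 and Frzb, the Wnt inhibitory factor Wif1, the Dickkopf proteins Dkk2 and Dkk3, and the ligands Wnt4 and Wnt11. All 10 were found among the 35745 transcripts of the comparison of quadriceps with heart, and 7 among the 587 genes of the comparison of quadriceps after transverse aortic constriction (TAC) with quadriceps after sham surgery. Sfrp1, Sfrp2 and Wif1 were not analysed here after TAC. C57Bl6 mice without a stated transgene, given as the male substrain C57Bl/6JCrl in the study's methods, were operated at 8 weeks of age per the labels. The study's methods give 8 to 10 weeks. Tissue was taken 12 weeks after surgery. In TAC the aortic arch is tied around a needle of 27 gauge, which puts the left ventricle under lasting pressure overload. The groups were sham heart, sham quadriceps and TAC quadriceps, with 3 RNA sequencing libraries each, and the TAC quadriceps are named in the labels as those of cachectic mice. The third TAC library bears the number 4 in the deposited table and is called TAC library 4. The labels do not name the animal of each library, so the p-values measure the spread between these libraries.

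Wnt ligands are lipid-modified secreted proteins that bind Frizzled receptors on the same or a neighboring cell. With the co-receptors Lrp5 and Lrp6 they stabilize beta-catenin, which acts in the nucleus with TCF/LEF factors, and with other co-receptors they steer the cytoskeleton and calcium without beta-catenin. The Sfrp proteins and Wif1 hold the ligand itself outside the cell, whereas Dickkopf proteins such as Dkk2 act on the co-receptors. In skeletal muscle Wnt signals are known for their part in the formation and regeneration of fibers and in fibrosis, and in the heart for their part in development and scarring.

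Promoters are shown for the members that differed most among those with a sequence, Frzb and Wnt4 after TAC and Wnt4, Dkk2 and Wif1 between the tissues. RefSeq promoters (build GRCm38.p6, 250 bases before to 50 after the start, 5′ to 3′ on the strand of the gene) were matched for 7 of the 10 members. Capitals mark the core of the TCF/LEF motif, CTTTGA on either strand, and the E-box CAGCTG, which reads the same on both strands. The windows lie at chr2:80447347-80447646 (minus strand) for Frzb, at chr4:137277385-137277684 (plus strand) for Wnt4, at chr3:132085042-132085341 (plus strand) for Dkk2 and at chr10:121033754-121034053 (plus strand) for Wif1.
Frzb: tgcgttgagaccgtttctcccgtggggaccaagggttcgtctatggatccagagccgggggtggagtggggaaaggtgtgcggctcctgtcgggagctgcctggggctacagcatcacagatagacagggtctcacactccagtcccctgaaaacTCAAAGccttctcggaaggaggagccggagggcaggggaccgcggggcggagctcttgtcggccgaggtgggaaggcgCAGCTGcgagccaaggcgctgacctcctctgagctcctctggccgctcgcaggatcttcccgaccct
Wnt4: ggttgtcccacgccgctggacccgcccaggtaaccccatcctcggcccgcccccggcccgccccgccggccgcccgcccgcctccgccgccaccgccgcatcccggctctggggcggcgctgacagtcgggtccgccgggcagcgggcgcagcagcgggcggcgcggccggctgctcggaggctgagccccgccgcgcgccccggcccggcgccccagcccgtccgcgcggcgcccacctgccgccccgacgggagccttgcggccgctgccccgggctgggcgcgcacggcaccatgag
Dkk2: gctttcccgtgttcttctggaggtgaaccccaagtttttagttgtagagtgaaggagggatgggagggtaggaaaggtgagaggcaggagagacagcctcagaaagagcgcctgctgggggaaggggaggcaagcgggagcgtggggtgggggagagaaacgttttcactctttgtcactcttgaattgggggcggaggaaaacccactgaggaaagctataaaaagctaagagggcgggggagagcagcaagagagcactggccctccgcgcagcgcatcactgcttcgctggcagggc
Wif1: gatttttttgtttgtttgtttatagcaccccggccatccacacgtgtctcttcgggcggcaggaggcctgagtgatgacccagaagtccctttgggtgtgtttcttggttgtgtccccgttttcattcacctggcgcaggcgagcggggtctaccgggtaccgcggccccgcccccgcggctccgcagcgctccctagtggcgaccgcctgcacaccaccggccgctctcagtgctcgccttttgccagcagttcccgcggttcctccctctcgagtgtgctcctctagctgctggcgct
The window of Frzb held 1 TCF/LEF core, on the opposite strand with its first base at position -95 from the start, and 1 E-box at position -17. The windows of Wnt4, Dkk2 and Wif1 held neither, and neither did those of Sfrp2 and Sfrp5. The first of the 2 windows of Wnt11 held 1 TCF/LEF core at position -50. All positions refer to the RefSeq start. GENCODE vM21 starts Frzb at chr2:80447625, near the upstream end of its window, so both sites of Frzb lie inside the gene there. The GENCODE start of Wnt4 (chr4:137277489) also lies ahead of its RefSeq start. Among all 32851 promoter windows of the same length, 16.0% held the TCF/LEF core and 16.3% the E-box. The Wnt4 window stood out in its base composition, with 84.3% G and C and 51 CG pairs in 300 bases, against a median of 52.7% G and C over all windows (quartiles 45.7% and 61.7%). The windows of Frzb, Wif1 and Dkk2 held 64.7%, 63.0% and 57.7% G and C.

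Library totals, as sums over all counted transcripts, were 33102826 to 38382751 in sham heart, 23383452 to 32989108 in sham quadriceps, and 48614494 and 48999600 in the TAC libraries 1 and 2. The depth of the groups thus differed with the operation and cannot be told apart from it. Marker genes went with the tissue labels: the 8 skeletal myofiber genes were all higher in quadriceps and the 6 ventricular cardiomyocyte genes all lower, with the fibroblast factor Tcf21 at 0 counts in every quadriceps library. The TAC table lists only genes annotated to the extracellular space, so its TMM scaling, which sets the typical fold change of its input to about 0, refers to these genes. Scaled by the library totals instead, the median log2 fold change of all genes after TAC was -0.63 over 5 libraries, without TAC library 4. With TMM it was -0.08 over the same 5 libraries and 0.03 over all 6. Between the tissues the median was -0.80 with the library totals rather than -0.06. Values below use TMM, and a call is an adjusted p under 0.05 in edgeR's quasi-likelihood test. Calls that do not hold with the library totals are named for the members and for the pathway genes given with a fold change.

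Which secreted Wnt regulators changed in quadriceps after TAC was addressed first. After TAC the message of the ligand Wnt4 rose 2.81-fold, and those of the antagonists Frzb and Sfrp4 fell, 3.49-fold and 3.40-fold. The other 4 members, Sfrp5, Dkk2, Dkk3 and Wnt11, did not pass the test. The calls were therefore 1 higher and 2 lower among 7 members, beside 17.7% higher and 11.9% lower among all 586 genes tested, and the median log2 fold change of the members was -0.01 against 0.03 for all genes. The values of the groups did not overlap for 4 of the 7, beside 47.3% of all genes (26.1% higher and 21.2% lower). With the library totals of 5 libraries the members called were 1 higher and 3 lower, beside 3.41% and 30.7% of all genes, and with the thresholds of the study, a log2 fold change of at least 1 with an unadjusted p under 0.05, they were 1 and 2, beside 11.4% and 12.6%. In bulk tissue, fewer cells that make a message and less of it in each cell cannot be told apart.

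Wnt4 (chr4:137277489-137299726, plus strand, GENCODE vM21 on GRCm38) encodes a ligand known from the kidney, the female reproductive tract and muscle that often acts without beta-catenin. It was counted 199, 247 and 122 times after sham surgery and 538, 564 and 554 times after TAC. After scaling, its normalized counts were 193 ± 49.1 in sham and 543 ± 18.7 in TAC quadriceps (SD, n = 3 each). The lowest TAC library thus stood well above the highest sham library, and the TAC libraries lay closer to each other than the sham libraries did. The log2 fold change was 1.49 ± 0.25 (SE) with an adjusted p of 0.00664 in edgeR's quasi-likelihood test. The call held under each of 16 alternatives, library totals included, with log2 fold changes from 0.59 to 1.72, the lowest of them on the compressed log2(RPKM + 1) scale.

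Frzb (chr2:80411970-80447625, minus strand), also known as Sfrp3, is a Wnt-binding protein first studied in cartilage. It was counted 193, 83 and 77 times after sham surgery and 18, 56 and 27 times after TAC. The normalized counts were 116 ± 37.5 in sham and 33.1 ± 19.4 in TAC quadriceps (SD, n = 3 each). Sham library 1 was the highest, and every TAC library lay below every sham library. The log2 fold change was -1.80 ± 0.44 (SE) with an adjusted p of 0.0189 in edgeR's test. Without sham library 1 it was -1.56 and the call was lost (adjusted p = 0.0736 in edgeR's test). The calls over all genes fell as well without that library, from 104 higher and 70 lower to 25 and 35.

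Sfrp4 (chr13:19623104-19632994, plus strand) is a family member known from bone, connective tissue and fat. It was counted 84, 46 and 31 times in the sham libraries and 11, 10 and 26 times in the TAC libraries, so the TAC values rest on few reads. The normalized counts were 52.5 ± 13.8 in sham and 15.5 ± 9.14 in TAC quadriceps (SD, n = 3 each). The groups did not overlap, with TAC library 4 the nearest to sham. The log2 fold change was -1.76 ± 0.44 (SE), with an adjusted p of 0.0206 in edgeR's test. The call was lost without sham library 1 (log2 fold change -1.56, adjusted p = 0.0918), without sham library 2 (-1.85, adjusted p = 0.0567) and without TAC library 1 (-1.62, adjusted p = 0.0506). In these fits 35, 48 and 63 of all genes were called lower, beside 70 with all 6 libraries. Without TAC library 4 the fall of Sfrp4 was larger, with a log2 fold change of -2.45 (adjusted p = 0.0105). The library totals, which are used here for the same 5 libraries, gave -3.02.

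**Figure D1:**
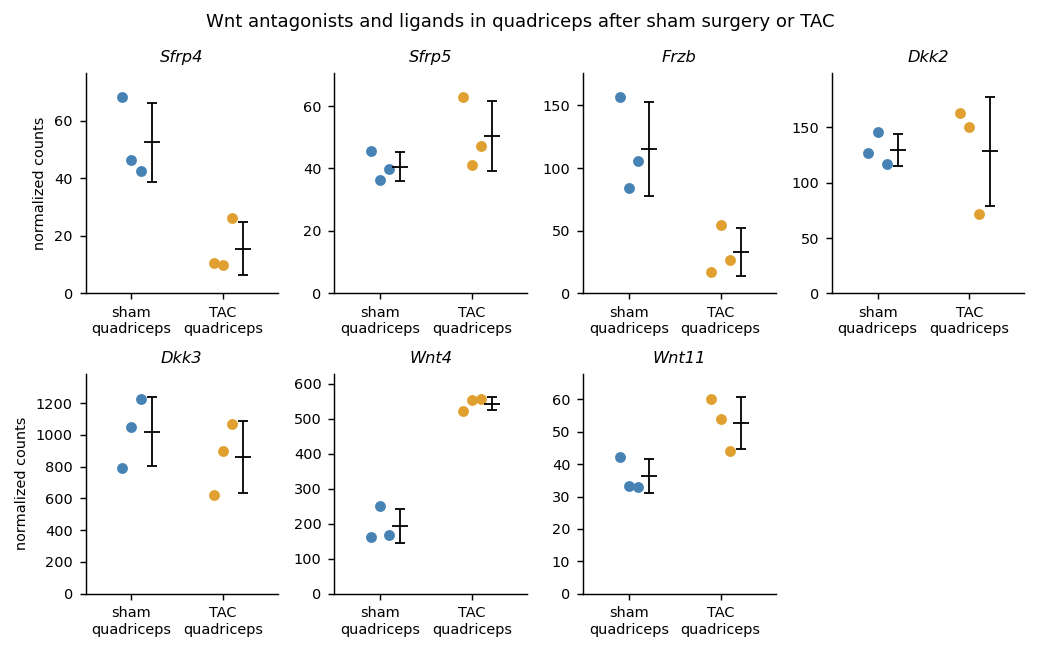
Normalized counts (TMM) of the 7 members in each quadriceps library after sham surgery (blue) or TAC (orange), 3 libraries a group, with the mean and SD as black bars and each vertical axis from 0. The TAC libraries lie above all sham libraries for Wnt4 and Wnt11 and below them for Frzb and Sfrp4, and the groups overlap for Sfrp5, Dkk2 and Dkk3.

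The ratio of 2 members within a library does not depend on how libraries are scaled. Wnt4 was counted 1.03, 2.98 and 1.58 times as often as Frzb in the sham libraries and 29.9, 10.1 and 20.5 times as often in the TAC libraries. Relative to Sfrp4 it was counted 2.37, 5.37 and 3.94 times as often in sham and 48.9, 56.4 and 21.3 times as often in TAC. The counts of the ligand were thus near those of Frzb in the first sham library and far above those of both antagonists in each TAC library. They are not divided by transcript length, which is 3816 bases for Wnt4, 2912 for Frzb and 1750 for Sfrp4. In RPKM, Wnt4 stood at 1.60 and Frzb at 2.03 in sham library 1. These pairs were chosen with their calls known, so the ratios are given as a description. The mean log2 ratio of Wnt4 to Frzb was 3.44 higher in TAC, and that of Wnt4 to Sfrp4 3.40 higher. Against Dkk3, the most counted member, the log2 ratio of Frzb was 1.66 lower in TAC (a difference of -1.66) and that of Sfrp4 1.62 lower (-1.62).

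Among the other antagonists, Dkk3 (chr7:112116017-112159057, minus strand), a divergent Dickkopf protein with a weak link to the Wnt co-receptors, was the most abundant member in quadriceps. It was counted 975, 1037 and 890 times in sham and 639, 917 and 1069 times in TAC, with overlapping groups. Its log2 fold change was -0.24 ± 0.27 (adjusted p = 0.523, edgeR). Scaled by the library totals of 5 libraries, without TAC library 4, it was -1.06 and called lower (adjusted p = 0.0190), while TMM on the same 5 libraries gave -0.52 and no call (adjusted p = 0.170). Dkk2 (chr3:132085292-132180304, plus strand), which binds the co-receptor Lrp6, was counted 156, 144 and 85 times in sham and 168, 154 and 72 times in TAC, and its log2 fold change was -0.01 ± 0.33 (adjusted p = 0.980, edgeR). TAC library 4 was the lowest and TAC library 1 the highest, so the TAC libraries spanned the sham range. Without TAC library 4 the log2 fold change was 0.19. Sfrp5 (chr19:42197971-42202252, minus strand), known as an adipokine, was counted 56, 36 and 29 times in sham and 65, 42 and 47 times in TAC. Its log2 fold change was 0.31 ± 0.28 (adjusted p = 0.448, edgeR), and with the library totals of 5 libraries -0.30, against 0.28 with TMM on the same 5.

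The second ligand, Wnt11 (chr7:98835112-98855195, plus strand), is known from heart development and the neuromuscular junction. It was counted 52, 33 and 24 times in sham and 62, 55 and 44 times in TAC. After scaling, the normalized counts were 36.2 ± 5.25 and 52.6 ± 8.06 (SD, n = 3 each), and each TAC library lay above each sham library. The log2 fold change was 0.53 ± 0.27, and the test did not call it (adjusted p = 0.175, edgeR). Scaled by the library totals of 5 libraries it was -0.01, against 0.56 with TMM on the same 5.

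**Figure D2:**
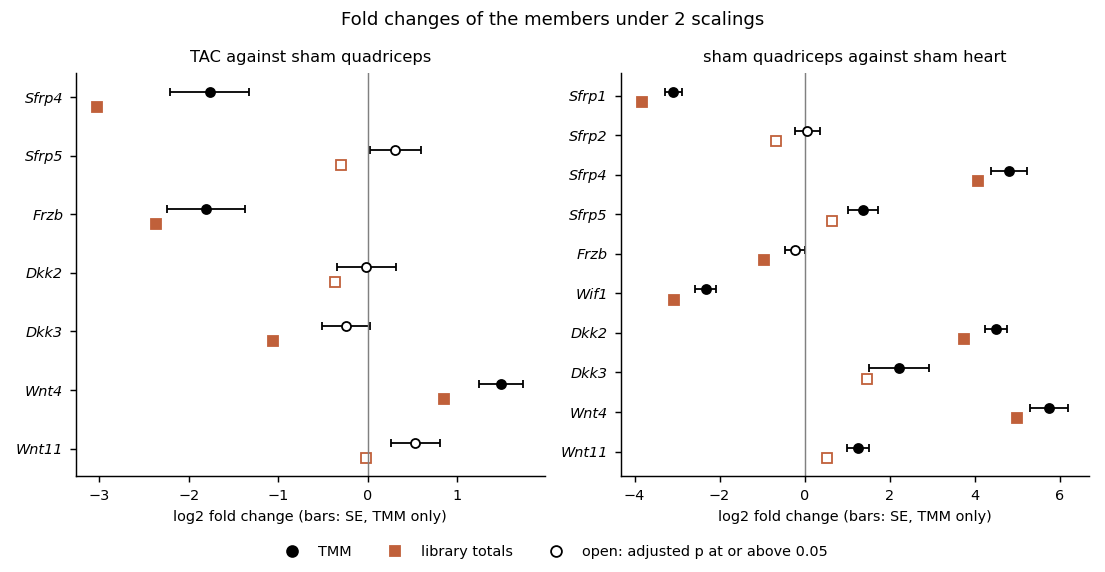
Log2 fold changes of the members after TAC (left) and between sham quadriceps and sham heart (right), with TMM scaling (black circles, bars are SE) and with library totals (red squares, no bars), filled where the adjusted p was under 0.05. Every square lies to the left of its circle, and Wnt4, Frzb and Sfrp4 on the left and Sfrp1, Sfrp4, Wif1, Dkk2 and Wnt4 on the right are filled under both scalings.

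Of the other Wnt pathway genes, 7 are among the genes of the TAC comparison, and 1 of them was called, beside 29.7% of all genes. This was the ligand Wnt2b, with counts of 27, 15 and 20 in sham and 82, 50 and 71 in TAC and a log2 fold change of 1.63 (adjusted p = 0.0116, edgeR). Its call held under 11 of 16 alternatives, with log2 fold changes from 0.20 to 1.83. Among the losses in edgeR's test were those with the library totals (0.93, adjusted p = 0.120) and without sham library 1 (1.63, adjusted p = 0.0592). The ligand Wnt5a, which acts mainly without beta-catenin, was counted 107, 85 and 44 times in sham and 15, 58 and 28 times in TAC. Its groups did not overlap after scaling, and its log2 fold change of -1.24 did not pass the test (adjusted p = 0.0699, edgeR), but did with the library totals (-1.79, adjusted p = 0.0419) and without TAC library 2 (-1.87, adjusted p = 0.0111). The ligands Wnt5b and Wnt9a (-0.46 and -0.24), the secreted inhibitor Igfbp4 (0.29), the R-spondin Rspo3, which prolongs Wnt signals (0.31), and the glypican Gpc4 (-0.06) were not called. The receptors, relay proteins and target genes of the pathway were not analysed here after TAC.

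The genes whose profiles over the 6 quadriceps libraries lay nearest to those of the 3 called members were found by the mean absolute difference of centered log2 CPM. For Wnt4 they included Bag6 (0.18) and the antioxidant enzyme Gpx3 (0.20). Both were also higher after TAC, which follows from their choice by likeness to Wnt4 over the same libraries. For Frzb they were the cytokine Il15 (0.18), the serpin Serpinb6b (0.24) and the chemokine Cxcl9 (0.27). For Sfrp4 they were Retnla (0.26), the collagen Col11a1 (0.30) and Cxcl9 (0.31).

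Markers of connective tissue moved in the direction of Frzb and Sfrp4. Of 8 fibroblast markers 6 were lower after TAC, beside 11.9% of all genes lower and 17.7% higher, the collagens Col3a1, Col1a1 and Col1a2 most (log2 fold changes -3.95, -3.31 and -2.51), while Dcn and Gsn were not called (0.17 and 0.36). The summed normalized counts of the 8 ranged from 15575 to 18823 in sham and from 10208 to 18122 in TAC libraries. Of 5 tendon and cartilage markers 3 were lower, with sums of 3310 to 3917 in sham and 1573 to 1767 in TAC. Endothelial markers were higher for 2 of 3, a rise that rests on the scaling. In RPKM, which use the library totals and leave out TAC library 4, Pecam1 held 7.93 in sham and 7.81 in TAC. Vwf held 0.698 and 0.744, and Egfl7, which was not called, 5.69 and 2.95. Leukocyte markers were lower for 2 of 3. None of 4 adipocyte markers was called, although Adipoq varied from 94 to 1183 counts within sham. The myofiber marker Ckm was not called (0.45). The part of these cell types in the results was not tested.

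The second comparison asked how the quadriceps differs from the heart of sham-operated mice, with the same sham quadriceps libraries as above. Per transcript length, Wif1, Dkk3, Sfrp1 and Frzb were the most abundant members in sham heart, with Dkk3 spread widely between the heart libraries. Sham quadriceps carried mainly Dkk3, and Wnt4, Dkk2 and Sfrp4 lay far above their heart levels. Of the 10 members 6 were called higher and 2 lower in quadriceps, beside 32.2% and 34.4% of all 24280 transcripts tested (66.6% in either direction). The median log2 fold change of the members was 1.32 against -0.06 for all transcripts. The groups did not overlap for 8 of 10 members, beside 72.6% of all transcripts (34.2% higher and 38.3% lower). With library totals the members called higher were 3, beside 13.3% of all transcripts, and those called lower 3, beside 62.6%. With the study's thresholds for the tissues, which ask for 2 on the log2 scale and 0.05 for the raw p, they were 4 and 2, beside 7.00% and 8.64%.

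**Figure D3:**
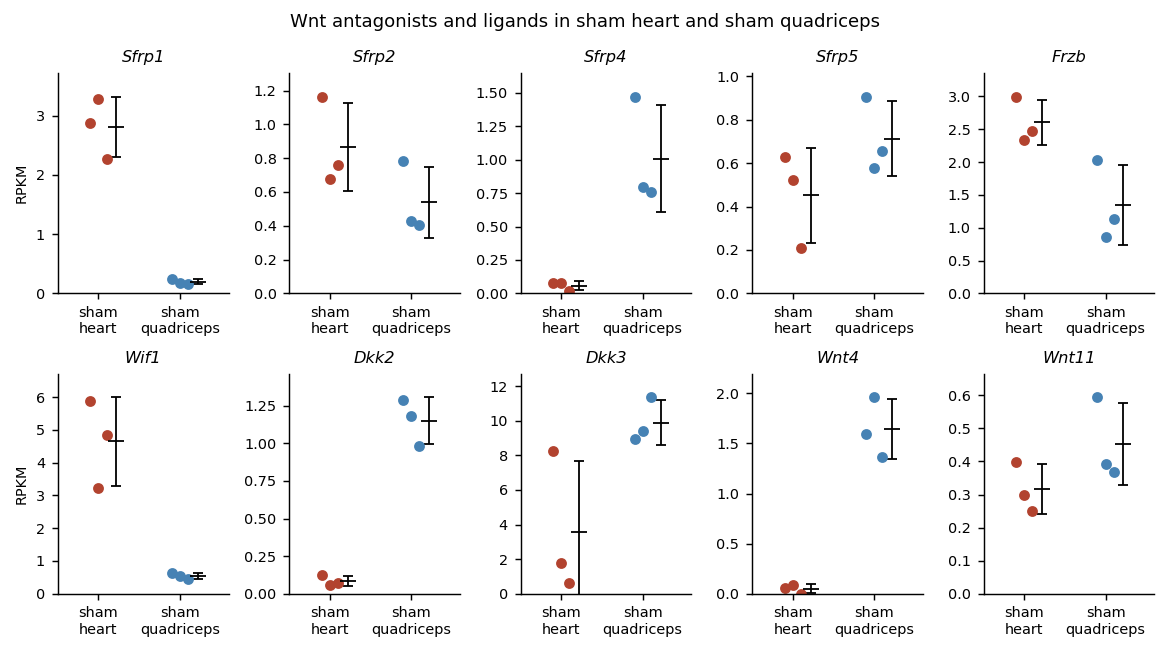
RPKM of the 10 members in each library of sham heart (red) and sham quadriceps (blue), 3 libraries a group, with the mean and SD as black bars and each vertical axis from 0. Sfrp1 and Wif1 are high in heart and Sfrp4, Dkk2 and Wnt4 high in quadriceps without overlap, and the heart libraries of Dkk3 range from 0.614 to 8.26.

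The members called lower in quadriceps were Sfrp1 and Wif1. Sfrp1 (chr8:23411502-23449632, plus strand), a founding member of its family, was counted 465, 550 and 328 times in heart and 35, 25 and 17 times in quadriceps. That is 2.81 ± 0.51 RPKM against 0.195 ± 0.0437 (SD, n = 3 each). It was 8.48-fold lower in quadriceps, with a log2 fold change of -3.08 ± 0.20 and an adjusted p of 9.58e-07 in edgeR's test. Wif1 (chr10:121033960-121100650, plus strand) binds Wnt ligands through a domain of its own. It was counted 487, 275 and 357 times in heart and 47, 39 and 24 times in quadriceps, or 4.65 ± 1.35 and 0.545 ± 0.0935 RPKM (SD, n = 3 each). It was 5.02-fold lower in quadriceps (log2 fold change -2.33 ± 0.25, adjusted p = 3.18e-05, edgeR). Both genes kept their call under each of 16 alternatives.

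Wnt4, Dkk2 and Sfrp4 were close to absent from the heart libraries. Wnt4 was counted 8, 13 and 0 times in heart and 199, 247 and 122 times in quadriceps. The count of 0 allows up to 3 counts, or 0.0237 RPKM, and covers counting error only. In RPKM it held 0.0484 ± 0.0449 in heart and 1.64 ± 0.30 in quadriceps (SD, n = 3 each), with a log2 fold change of 5.76 ± 0.44 (adjusted p = 3.41e-06, edgeR), and of 6.48 without heart library 2. Dkk2 was counted 17, 8 and 9 times in heart and 156, 144 and 85 times in quadriceps, a log2 fold change of 4.50 ± 0.26 (adjusted p = 4.77e-07, edgeR). Sfrp4 was counted 5, 5 and 1 times in heart and 84, 46 and 31 times in quadriceps, a log2 fold change of 4.81 ± 0.42 (adjusted p = 7.81e-06, edgeR). All 3 were called under every alternative that tested them. Their heart values rest on at most 17 reads a library, so these folds are less precise than the quadriceps levels.

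Sfrp5 and Wnt11 were called with smaller differences that rest on the scaling. Sfrp5 was counted 44, 38 and 13 times in heart and 56, 36 and 29 times in quadriceps, with a log2 fold change of 1.38 ± 0.35 (adjusted p = 0.00660, edgeR) and of 0.64 with library totals (adjusted p = 0.155). Wnt11 was counted 41, 32 and 23 times in heart and 54, 36 and 24 times in quadriceps on its leading transcript, with a log2 fold change of 1.26 ± 0.26 (adjusted p = 0.00200, edgeR) and of 0.52 with library totals (adjusted p = 0.121). On the RPKM scale, which uses the library totals, the groups of both genes overlapped. The other 3 transcripts of Wnt11 gave log2 fold changes of 1.23, 1.34 and 1.29. They share most of their reads with the leading transcript and are no separate evidence. The counting is not stated to use the strand, and Gm8398 lies opposite to Wnt11 and Gm26771 opposite to Sfrp2, so reads of these pairs cannot be told apart.

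Dkk3 was the member with the widest spread in heart. Its counts were 1024, 225 and 68 in heart and 975, 1037 and 890 in quadriceps. Heart library 1 therefore held about as many as a quadriceps library, while heart library 3 held far fewer, and the RPKM were 3.54 ± 4.12 in heart and 9.90 ± 1.30 in quadriceps (SD, n = 3 each). After scaling the groups did not overlap and the log2 fold change was 2.23 ± 0.70 (adjusted p = 0.0187, edgeR). The call was lost without heart library 2 (1.89, adjusted p = 0.0660), without quadriceps library 3 (2.13, adjusted p = 0.0512) and with library totals (1.48, adjusted p = 0.0985). Without heart library 1 the log2 fold change was 3.81.

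The heart libraries differed in the same order in atrial markers. Myl7, an atrial myosin light chain, was counted 2075, 164 and 3 times in heart libraries 1, 2 and 3, Myl4 6811, 756 and 91 times, Sln 838, 48 and 2 times and the natriuretic peptide Nppa 21763, 20012 and 8000 times, while Bmp10 had at most 1 count. The summed normalized counts of the 5 atrial genes ranged from 6590 to 23104 over the heart libraries and from 209 to 428 over the quadriceps libraries. After scaling, 4 members lay in this order, from heart library 1 down to heart library 3, all of them called higher in quadriceps, and 18.3% of all tested transcripts did so. They were Dkk3, Sfrp5 (normalized counts of 32.3, 26.4 and 10.6), Wnt11 (30.1, 22.2 and 18.7) and Sfrp4 (3.67, 3.47 and 0.814). Of 8 tendon and cartilage markers 5 lay in it too, among them Fmod with 200, 125 and 42 counts, Chad with 64, 37 and 12 and Col12a1 with 78, 55 and 20, and of 10 fibroblast markers 5. The part of atrial and connective tissue in the results for these members was not tested. The other 6 members did not lie in this order after scaling, although Frzb and Sfrp2 did in their raw counts. Heart library 2 was the highest for Sfrp1 and the lowest for Wif1.

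Frzb and Sfrp2 were not called between the tissues. Frzb was counted 323, 261 and 239 times in heart and 193, 83 and 77 times in quadriceps, with a log2 fold change of -0.22 ± 0.24 (adjusted p = 0.437, edgeR). It was called lower in quadriceps with library totals (-0.95, adjusted p = 0.0155) and without quadriceps library 1 (-0.57, adjusted p = 0.0165), and was 0.00 without quadriceps library 2. Sfrp2 (chr3:83766321-83774316, plus strand), known from connective tissue and from muscle stem cells, was counted 86, 52 and 50 times in heart and 51, 28 and 19 times in quadriceps. Its log2 fold change was 0.07 ± 0.30 (adjusted p = 0.851, edgeR) and -0.67 with library totals (adjusted p = 0.0925), so its direction depended on the scaling.

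Per transcript length, Wif1 led the heart (4.65 RPKM on average), followed by Dkk3 (3.54), Sfrp1 (2.81) and Frzb (2.60), whose ranges over libraries overlapped from each to the next. Sfrp2 (0.866) lay below all 3 Frzb values, Sfrp5 (0.452) below all Sfrp2 values, and Wnt11 (0.316) within the range of Sfrp5. Dkk2 (0.0846), Sfrp4 (0.0563) and Wnt4 (0.0484) closed the order with overlapping ranges. In quadriceps Dkk3 (9.90 RPKM) stood above all other members in every library. Wnt4 (1.64), Frzb (1.34), Dkk2 (1.15), Sfrp4 (1.01), Sfrp5 (0.712), Wif1 (0.545), Sfrp2 (0.538) and Wnt11 (0.452) followed, each overlapping with the next, and Sfrp1 (0.195) lay below them all. Wif1 thus went from the top of the order in heart to a low place in quadriceps, and Sfrp1 to the bottom.

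The share of each gene in the summed RPKM of the Sfrp family also needs no scaling between libraries. Sfrp1 made up 37.2%, 47.6% and 39.6% of it in heart, but 4.52%, 6.12% and 5.34% in quadriceps. Sfrp4 made up 0.997%, 1.08% and 0.301% in heart and 27.1%, 28.1% and 24.3% in quadriceps. Sfrp5 held 6.43% ± 2.45 in heart and 19.3% ± 2.33 in quadriceps (SD, n = 3 each). The family was thus mainly Sfrp1 and Frzb in each heart library and mainly Frzb and Sfrp4 in each quadriceps library. These shares are given without a test. Frzb held 38.6% ± 4.70 in heart and 34.7% ± 3.71 in quadriceps, and Sfrp2 12.7% ± 2.63 and 14.2% ± 0.99, with overlapping libraries for both. The summed level of the family depended on the scaling. It was 6.78 ± 1.01 RPKM in heart and 3.79 ± 1.43 in quadriceps (SD, n = 3 each), without overlap. With TMM it ranged from 154 to 210 normalized counts per kilobase in heart and from 137 to 228 in quadriceps, so the groups overlapped. Of the summed RPKM of both ligands, Wnt4 held 0% to 22.8% in heart and 72.9% to 83.3% in quadriceps, and Wnt11 the rest.

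**Figure D4:**
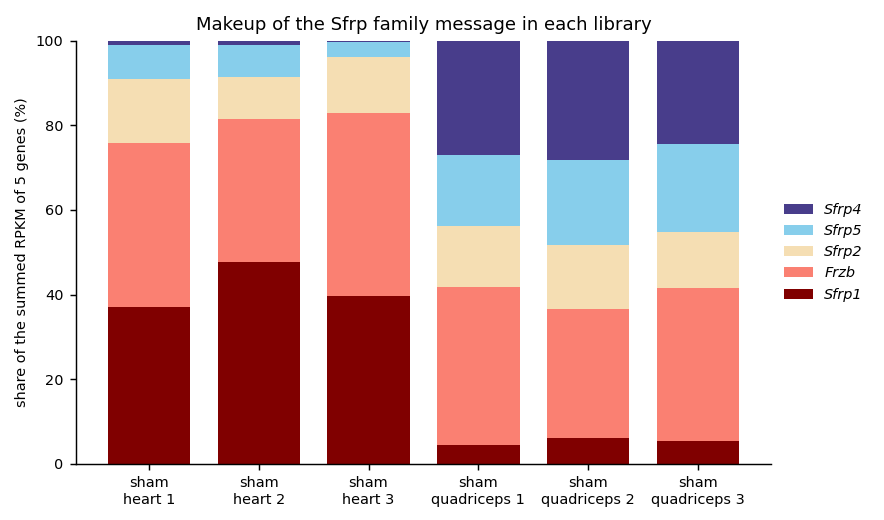
Share of each of the 5 Sfrp family genes in their summed RPKM (vertical axis, percent) in each library of sham heart and sham quadriceps (one bar a library). Sfrp1 and Frzb fill most of each heart bar, and Sfrp4 takes 24.3% to 28.1% of each quadriceps bar against at most 1.08% in heart.

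Set beside each other, with the sham quadriceps libraries shared by both comparisons, Wnt4 was higher in quadriceps than in heart and rose further after TAC, and Sfrp4 was higher in quadriceps than in heart and fell after TAC. Frzb was not called between the tissues and fell after TAC, while Dkk2 was higher in quadriceps than in heart and was not called after TAC.

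Around these members, the other genes of the pathway differed in both directions between the tissues. Of 61 other Wnt pathway genes tested, 21 were called higher and 23 lower in quadriceps, with a median log2 fold change of -0.17. With library totals these counts were 9 and 37. The counts by role given below use TMM, and some genes called higher had no higher mean RPKM in quadriceps. Such were Fzd4 (6.19 in heart and 5.70 in quadriceps), Lrp4 (1.26 and 1.15) and Dvl2 (0.947 and 0.744). The median of all transcripts was -0.06, and the backgrounds are those given for the members.

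Among the receptors, 4 of 10 Frizzled genes were higher in quadriceps and 5 lower. Fzd10, Fzd9 and Fzd7 were highest, with log2 fold changes of 3.84 (4.54 without heart library 2), 3.45 and 3.30, and Fzd3, Fzd1 and Fzd6 were lowest, with -1.80, -1.34 and -1.24. Fzd7, a receptor known from muscle stem cells, was counted 223, 253 and 216 times in heart and 1141, 1379 and 816 times in quadriceps. Of 11 co-receptors and receptors of Dickkopf proteins 4 were higher and 6 lower. The receptor tyrosine kinase of the neuromuscular junction Musk was counted 5, 2 and 4 times in heart and 149, 241 and 166 times in quadriceps (log2 fold change 6.66), and Gpc3 and Ryk were higher as well (1.34 and 1.32). Ptk7 and Ror1, co-receptors of signaling without beta-catenin, and Lrp5 were lower (-3.04, -2.90 and -1.82), and Ptk7 was at -3.72 without quadriceps library 1. The 6 named co-receptors kept their direction under all alternatives, and Gpc3 lost its call with library totals (0.61, adjusted p = 0.0776).

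Of 5 other antagonists tested, 2 were lower in quadriceps and none higher. Trabd2b, a membrane protease that cleaves Wnt ligands, was counted 4715, 4071 and 3233 times in heart and 87, 35 and 33 times in quadriceps (log2 fold change -5.26), and Igfbp4 was lower by less (-1.24). Dkk1, Dkkl1 and Cer1 had 0 counts in all 6 libraries. Of 6 other ligands tested, Wnt9a was higher in quadriceps (1.48) and Wnt5a lower (-0.77). Wnt9b was lower as well, with 20, 21 and 10 counts in heart but 1, 0 and 0 in quadriceps. Its fold rests on that 1 read: summed over the libraries the ratio of heart to quadriceps was 24.9, with an exact 95% interval of 4.27 to 1003 for counting error only, and the fitted log2 fold change moved from -4.33 to -6.72 without quadriceps library 1. Porcn, the enzyme that lipidates Wnt ligands, was higher (1.08), but lost its call with library totals (0.33, adjusted p = 0.324).

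Of 6 R-spondin and R-spondin receptor genes 3 were higher and 1 lower, Rspo3 (2.02) and Lgr4 (1.19) among the former and Lgr6 (-3.33) the latter. Rspo3 was counted 25, 12 and 1 times in heart, the order of the atrial markers, and 36, 21 and 19 times in quadriceps. Its log2 fold change was 2.96 without heart library 1, and its call was lost with library totals (1.29, adjusted p = 0.0967). Of 10 relay genes 6 were higher, Dvl1 most (1.26), and 2 lower. Of 4 TCF/LEF genes 2 were lower, Tcf7l1 more (-1.31). Of 7 common target genes 2 were higher and 3 lower. Tnfrsf19 was higher (2.78), the cell cycle gene Ccnd1 (-2.72), Wisp1 (-1.69) and the feedback inhibitor Nkd1 (-1.08) were lower, and Axin2, a widely used target gene, was not called (0.34, adjusted p = 0.101, edgeR).

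**Figure D5:**
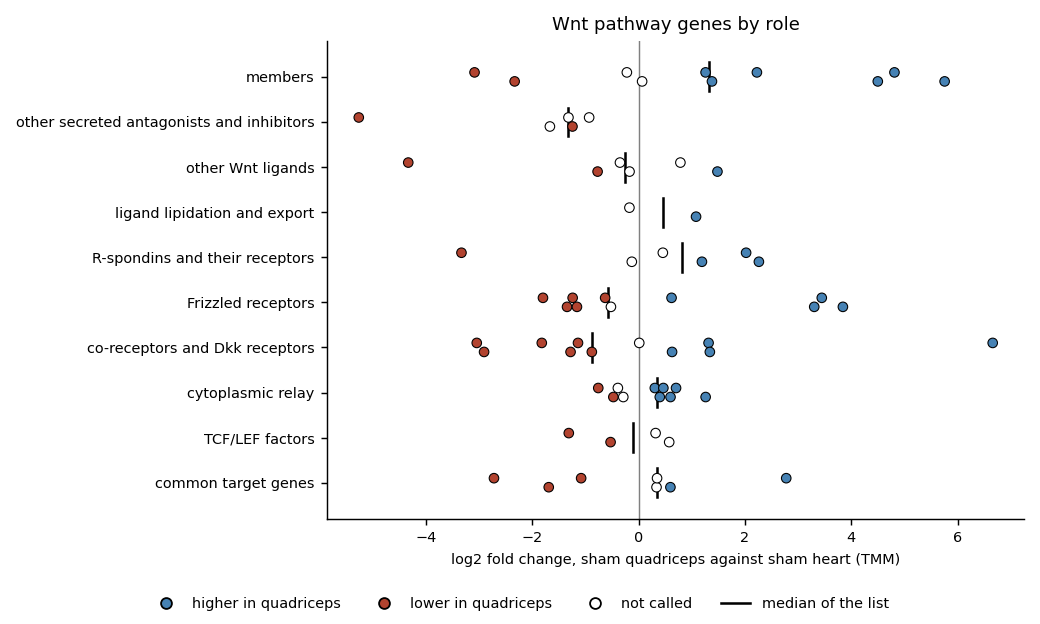
Log2 fold changes between sham quadriceps and sham heart (horizontal axis, TMM) of the tested Wnt pathway genes, one point a gene, by role, with the 10 genes of the report in the top row, blue for higher and red for lower in quadriceps, open for not called, and a bar at the median of each list. Points lie on both sides of 0 in each list but that of the other antagonists, which all lie below 0.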

How the data were processed

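RNA of quadriceps and heart was sequenced with a ScriptSeq v2 library kit, per the labels and the study's methods. After trimming in Trim Galore the authors mapped reads to mm10 using STAR and counted them per RefSeq transcript with Rsubread, and the deposited counts are raw. The deposited RPKM values are those counts scaled to transcript length and library total, which gave back the library totals. The use of the strand in counting is not given in the sources used here. The fold changes and p-values that the authors deposited beside the counts come from their own edgeR comparisons and were not used, and 1 column of a single library, the RPKM of TAC library 4, was not used, since its number is in no label. Its counts were taken as those of the third TAC sample.

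A transcript needed over 5 counts in 2 or more libraries to enter the test in edgeR 4.0.16 (quasi-likelihood, TMM, Benjamini-Hochberg over 586 genes or 24280 transcripts) in R 4.3.3. Normalized counts are counts divided by the TMM-scaled library size relative to the mean of the 6 libraries. A gene with several transcripts in a comparison is given by the one with the highest mean RPKM there. The transcript can differ between the comparisons, as for Wnt11 and Wnt5a, whose counts in the same sham libraries therefore differ slightly. Alternatives were DESeq2 1.42.0, its size factors, library totals (in TAC 5 libraries), no count filter or at least 10 counts in every library, limma 3.58.1 on log2(RPKM + 0.5, 1 or 0.1), the thresholds of the study (an unadjusted p under 0.05 with a log2 fold change of 1 after TAC or of 2 between the tissues), a replicate block, 1 transcript per gene with the most counts, and leaving out each library. In TAC the limma fits, which take RPKM, also use the 5 libraries without TAC library 4. The ratios, the Sfrp shares and their summed level with TMM were added after the data were seen. So was the fit of the 4 numbered TAC and sham libraries without a block. No replicate pair agreed within sampling noise (lowest chi-square per degree of freedom 7.10). The fits were tested on simulated data.

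The members and lists were chosen with earlier results of these data known. All members are named, the pathway genes of the TAC comparison, and in the tissue comparison the 3 highest and 3 lowest called genes without overlap in each list. Of the latter, those with a log2 fold change under 1 in size are mostly given as counts, without alternatives. Axin2, Fmod, Chad, Col12a1 and the genes at 0 counts were named after their values were seen. For each called member up to 3 genes of like profile are named, and for Wnt4 1 of these is not reported here. Gene positions come from GENCODE vM21 (GRCm38) and promoters from RefSeq (GRCm38.p6). Figures and sequence searches used Python 3.11.15, pandas 2.3.3, numpy 2.4.6 and matplotlib 3.10.9.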

Additional observations from a re-analysis of the deposited data

How the results depend on the processing

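Of 788 values of named genes under the alternatives, 760 kept their direction and 711 also their side of the threshold, 30 lost their call, 19 gained one and 28 turned direction. Calls for Wnt4 after TAC and for Sfrp1, Wif1, Sfrp4, Dkk2 and Wnt4 between the tissues held under each alternative run. The number of libraries, 3 a group, and counts of 10 to 26 for Sfrp4 after TAC and 0 to 17 for Sfrp4, Dkk2 and Wnt4 in heart limit the precision. Where a setting moved a value by other means than fewer libraries or genes, the cause was not tested.

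After TAC the members called lower were 2, and 1 in the 4 numbered libraries without a block, where Frzb was not called (-1.74, adjusted p = 0.0619). Leaving out a library gave 0 to 2. The other pathway genes called were 1, and 2 with DESeq2, library totals, limma with a pseudocount of 0.5 or 0.1, the replicate block and the thresholds of the study. Leaving out a library gave 0 to 2, and the genes that changed were Wnt2b, Wnt5a and Wnt9a. Under limma with a pseudocount of 0.5, 1 or 0.1, Dkk3 was called lower (-0.99, -0.93 and -1.05). These limma fits rest on the same 5 libraries and the same library totals as the setting of that name. They called 192 to 199 of all 586 genes lower and 16 to 17 higher. Leaving out a library, 35 to 102 of all genes were called lower and 25 to 113 higher.

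Between the tissues the members called higher were 6, and 3 with library totals and with at least 10 counts in every library, a filter that leaves out Wnt4, Dkk2 and Sfrp4. They were 4 with limma and with the thresholds of the study, 9 over every tested transcript, and 5 to 6 leaving out a library. The 9 count each transcript of Wnt11, which share most of their reads. Of all 24280 transcripts, limma called 3194 to 3218 higher and 15319 to 15365 lower. The filter of 10 counts left 19432 transcripts, of which 6494 were called higher. Leaving out a library, 6987 to 8146 of all transcripts were called higher and 7409 to 8357 lower. The other pathway genes called higher were 21, and 9 with library totals, 10 with limma at each pseudocount, 7 with the thresholds of the study and 16 to 22 leaving out a library. Those called lower were 23, and 37 with library totals, 39, 39 and 37 with limma at 0.5, 1 and 0.1, 6 with the thresholds of the study and 22 to 26 leaving out a library.

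Directions turned after TAC for Dkk2 (0.20 in the 4 numbered libraries without a block), Sfrp5 (-0.30 with library totals, -0.17, -0.12 and -0.26 with limma), Wnt11 (-0.014 with library totals), Wnt5b (0.067 in the 4 numbered libraries without a block), Igfbp4 (-0.47 with library totals, -0.40, -0.37 and -0.43 with limma) and Rspo3 (-0.074 with library totals, -0.034, -0.020 and -0.071 with limma). Between the tissues one turned for Sfrp2 (-0.67 with library totals, -0.40, -0.28 and -0.61 with limma). Leaving out a library gave -0.30 to 0.19 for Dkk2 after TAC, with the direction turned without sham library 2 or TAC library 4, -0.32 to 0.12 for Gpc4 (without TAC library 1) and -0.18 to 0.48 for Rspo3 (without TAC library 2). Between the tissues it gave -0.21 to 0.35 for Sfrp2 (without heart library 2 or 3 or quadriceps library 1) and -0.57 to 0.00052 for Frzb (without quadriceps library 2). Except for Frzb at -0.57, none of these values was called.

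Libraries that share a number did not deviate together (r = 0.05, -0.05 and 0.04 for heart and quadriceps, 0.08 and -0.16 for TAC and sham, 0.06 over the 4 numbered libraries alone), so the numbers were not taken to pair them. With the replicate block the members called were 1 higher and 2 lower after TAC and 6 higher and 2 lower between the tissues. The other pathway genes called with the block were 2 after TAC, with Wnt5a added (-1.50, adjusted p = 0.0185), and 19 higher and 23 lower between the tissues, and Dkk2 after TAC turned to 0.21. Of the libraries, 1 in each comparison correlated best with its own number.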
